A study of Homo sapiens with 6 samples.

Results

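The genes carried by the mitochondrial chromosome were taken as all genes with a symbol starting with MT- on that chromosome, which gave 37 of the 57905 genes of the count table. They comprised 13 genes for proteins, 2 for rRNAs and 22 for tRNAs. Gene levels were measured by RNA-SEQ in NALM6, an established cell line of B-cell precursor acute lymphoblastic leukemia. The 3 DMSO libraries came from cells given the solvent, and the 3 THZ1 libraries from cells given 500 nM of the covalent CDK7 inhibitor THZ1. Both treatments lasted 24 h, and the cells were otherwise the same unmodified line. The labels did not say whether the 3 libraries of a treatment came from separate cultures, so the p-values measure only the spread between these libraries, which may be technical.

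The libraries held 11015480 to 11164840 gene counts after DMSO and 7876402 to 8314306 after THZ1. Levels are given as CPM, a gene's counts relative to all gene counts of its library on a fixed scale, after TMM scaling. All 9 B-precursor markers were detected, with a summed level of 3454 to 3721 CPM after DMSO and 1644 to 1739 CPM after THZ1, where 1 of them (CD79A, log2 fold change 1.33) was higher and 7 were lower (lowest IGLL1, -2.26), beside 43.5% higher and 41.1% lower of all genes tested. The 3 T-cell markers summed to at most 0.969 CPM. The 3 myeloid markers summed to 3.80 to 4.51 CPM after DMSO and 10.1 to 12.2 CPM after THZ1, with CD14 (log2 fold change 3.75) higher. CD14 had 7, 9 and 7 counts after DMSO and 58, 71 and 65 after THZ1. It passed the filter for enough counts only through the THZ1 libraries, so its direction was largely set by that filter. LYZ (-0.83, edgeR adjusted p = 0.036) overlapped between treatments. Its call was lost in edgeR with the replicate block (adjusted p = 0.0556) and with RLE factors (0.0532), and with DESeq2 (0.123). In edgeR it was also lost with upper quartile factors and without DMSO library 1 or 2 or THZ1 library 1 or 2 (adjusted p = 0.0738 to 0.164). The part of the markers in the mitochondrial results was not tested.

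Mitochondrial DNA is a small circle present in many copies per cell. Its dedicated polymerase, POLRMT, with the factors TFAM and TFB2M, copies each strand into long RNAs that carry many genes, and tRNAs lying between the other genes are cut out to release the mRNAs and rRNAs. The proteins are core subunits of respiratory complexes I, III and IV and of the ATP synthase, complex V, and the rRNAs and tRNAs serve the translation of those mRNAs inside the organelle. By convention the genes whose RNA reads along the reference sequence are called heavy strand genes, and those on the opposite strand light strand genes.

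On the mitochondrial chromosome of the reference, 16569 bases long and listed as chrM, 28 genes lay on the plus strand and were counted as heavy strand genes: 12 for proteins, both rRNA genes and 14 for tRNAs. The other 9 lay on the minus strand: MT-ND6 and 8 tRNA genes. None of them holds an intron. Neighbouring genes lie close together, and some abut or overlap. Whether the counting used strand was not given in the sources used here, so reads from transcripts of the opposite strand cannot be told apart from those of the gene itself.

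The 5 light strand tRNA genes with the most counts, on which the results for tRNAs turn, are shown 5′ to 3′ as the GRCh37 reference reads on the minus strand, with the anticodon in capitals. MT-TQ, for glutamine, lies at chrM:4329-4400, MT-TY, for tyrosine, at chrM:5826-5891, MT-TS1, for serine, at chrM:7446-7514, MT-TE, for glutamate, at chrM:14674-14742, and MT-TP, for proline, at chrM:15956-16023.
MT-TQ: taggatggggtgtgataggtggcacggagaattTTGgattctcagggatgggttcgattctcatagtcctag
MT-TY: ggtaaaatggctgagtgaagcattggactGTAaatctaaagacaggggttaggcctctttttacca
MT-TS1: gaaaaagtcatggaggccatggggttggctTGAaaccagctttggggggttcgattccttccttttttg
MT-TE: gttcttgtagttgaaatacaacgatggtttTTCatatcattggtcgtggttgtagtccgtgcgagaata
MT-TP: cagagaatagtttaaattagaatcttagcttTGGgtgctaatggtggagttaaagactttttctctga

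MT-ATP8 and MT-ND4L each overlap the next gene on the same strand, so that a read within the shared stretch could not be given to 1 gene, and MT-ATP6 and MT-CO3 share 1 base. The shared bases of the first 2 pairs are in capitals: 46 bases of MT-ATP8 and MT-ATP6, within chrM:8512-8587, and 7 bases of MT-ND4L and MT-ND4, within chrM:10745-10781.
MT-ATP8 and MT-ATP6: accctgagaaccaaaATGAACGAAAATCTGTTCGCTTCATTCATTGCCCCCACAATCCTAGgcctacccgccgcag
MT-ND4L and MT-ND4: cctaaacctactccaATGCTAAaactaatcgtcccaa

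Mitochondrial RNA took a larger share of the counts after THZ1, and nearly every mitochondrial gene with enough counts was higher. Of all gene counts, the 37 genes took 4.36%, 4.37% and 4.32% in DMSO libraries 1 to 3 and 12.6%, 13.4% and 13.6% in THZ1 libraries 1 to 3. The mean rose from 4.35% ± 0.0276 to 13.2% ± 0.504 (SD, n = 3 each), a difference of 8.85 percentage points, and the treatments did not overlap. The largest half-width of a library's Wilson 95% interval was 0.024 percentage points, which covers counting error only. In counts, the mitochondrial sum was 481137 to 481913 after DMSO and 1049760 to 1112594 after THZ1, while all other genes summed to 10534343 to 10682927 and to 6819251 to 7264546. A higher level of these RNAs per cell and a lower level of the other RNAs per cell cannot be told apart in these bulk libraries.

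The 3 classes of mitochondrial gene moved by unequal amounts. Protein genes went from 4.10% ± 0.0295 to 12% ± 0.440 of all gene counts (SD, n = 3 each). For the rRNA genes the share went from 0.175% ± 0.00569 to 1.02% ± 0.0653. The tRNA genes went from 0.0774% ± 0.00696 to 0.174% ± 0.0108. In each class the treatments did not overlap.

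Of the 37 genes, 23 had enough counts to be tested, and 22 of these were higher after THZ1 at an adjusted p below 0.05 (quasi-likelihood test of edgeR, adjusted over 16622 genes by the Benjamini-Hochberg method). None was lower, also at an unadjusted p and with DESeq2 (0 genes each), and 1, MT-TE, was not called. With at least 10 counts required in every library, 21 were tested and 20 were higher. Among all genes tested, 43.5% were higher and 41.1% lower, with a median log2 fold change of 0.03. The 23 genes had a median of 1.88 and ran from -0.11 to 2.97, and 15 of them reached a log2 fold change of 1.5, against 24.6% of all genes tested. The levels of 22 of the 23 did not overlap between treatments, against 84.7% of all genes tested. By strand, 16 of 28 heavy strand genes were tested and all 16 were higher (median log2 fold change 1.88), and 7 of 9 light strand genes were tested and 6 were higher (median 1.49). A second deposited table, of log2 FPKM, holds 16 of the 37 genes. By limma, 9 of the 16 were higher there and 1 or 2 lower, depending on the setting. The share called over all genes of that table is not given, so this count has no background beside it. There, 6 of the 16 had 1 identical value in all 3 THZ1 libraries. Values also recurred across genes and treatments, so sizes and signs of change in that table are uncertain.

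**Figure D1:**
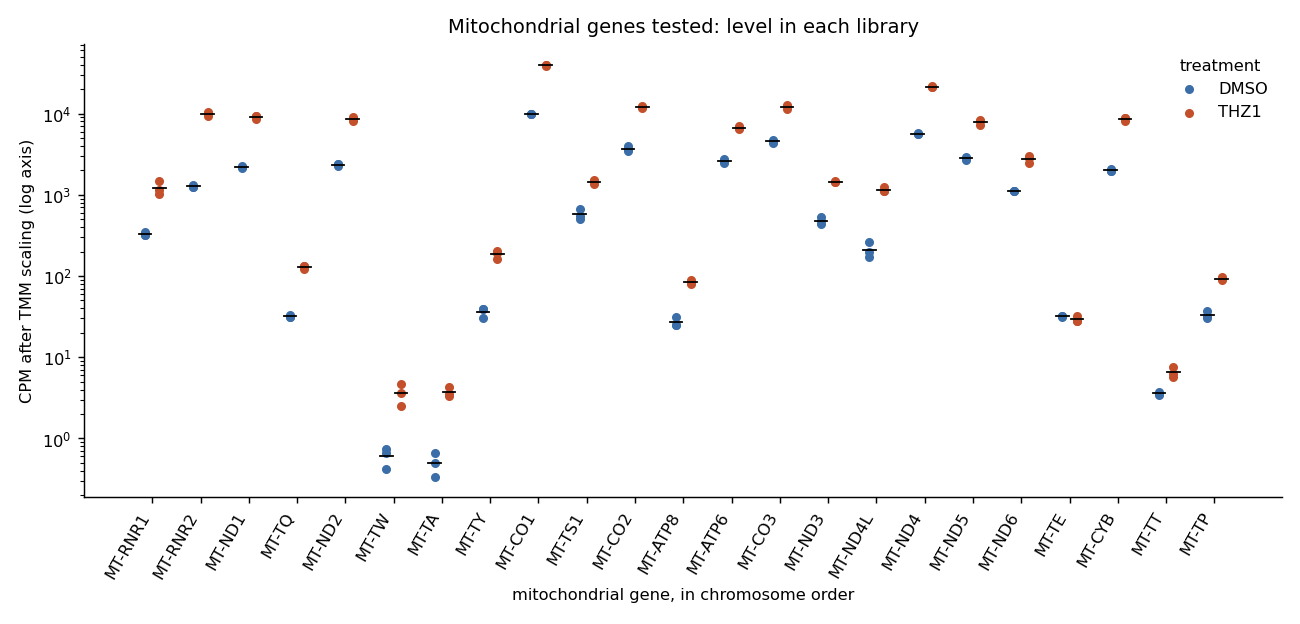
CPM (log axis) of the 23 mitochondrial genes tested, in genome order, with 1 point per library for 3 DMSO and 3 THZ1 libraries and a line at each mean. The THZ1 points lie above the DMSO points for 22 genes, and the points of MT-TE lie together at 27.7 to 32.3 CPM.

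Both rRNA genes were higher after THZ1, and MT-RNR2 had the largest log2 fold change of the 23 mitochondrial genes tested. MT-RNR2, the rRNA of the large mitochondrial ribosome subunit (chrM:1671-3229), was at 1265, 1306 and 1245 CPM in DMSO libraries 1 to 3 and at 9393, 10325 and 10150 CPM in the THZ1 libraries. All 3 THZ1 libraries were far above the DMSO range. The log2 fold change was 2.97 (SE 0.08, edgeR quasi-likelihood adjusted p = 1.2e-25), a 7.83-fold difference. MT-RNR1, the rRNA of the small subunit (chrM:648-1601), was at 321.5, 324.4 and 350.9 CPM after DMSO and at 1032, 1486 and 1151 CPM after THZ1. Its log2 fold change was 1.88 (SE 0.09, adjusted p = 1.4e-18). THZ1 library 2 was the highest for MT-RNR1, and without that library the log2 fold change of MT-RNR1 was 1.70.

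Within each library, MT-RNR2 had 3.93, 4.03 and 3.55 counts per count of MT-RNR1 after DMSO and 9.11, 6.95 and 8.82 after THZ1. For every 100 counts of mitochondrial mRNA there were 4.23, 4.39 and 4.17 counts of rRNA after DMSO and 8.28, 8.91 and 8.34 after THZ1, a log2 ratio of 1.00. Neither ratio overlapped between treatments, and neither depends on how libraries are scaled to each other.

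Of 5 listed nuclear genes whose RNAs lack a long poly(A) tail, 2 were in the count table, and both differed between treatments. RN7SK, which holds the transcription elongation factor P-TEFb inactive, was at 2.56, 2.62 and 2.28 CPM after DMSO and at 31.2, 64.2 and 37.4 CPM after THZ1. RN7SL2, an RNA of the signal recognition particle, was at 7.28, 6.97 and 6.16 CPM after DMSO and at 129.8, 189.0 and 149.2 CPM after THZ1. Both were highest in THZ1 library 2, as MT-RNR1 was and, by less, MT-RNR2 (10325 CPM against 10150 in THZ1 library 3). Of 10 listed genes of the nuclear rRNA locus, 2 were in the count table, MIR3648 and MIR3687. These were at 138.5, 166.0 and 248.1 CPM and at 178.3, 194.4 and 259.0 CPM after THZ1, each highest in library 3. They summed to 0.164 to 0.759 CPM after DMSO and 316.8 to 507.1 CPM after THZ1. After DMSO MIR3648 had 1, 2 and 3 counts and MIR3687 had 2, 0 and 6. Both passed the filter for enough counts only through the THZ1 libraries. The part of these RNAs in the mitochondrial rRNA result was not tested.

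All 7 mitochondrial subunits of complex I, the NADH dehydrogenase, were higher after THZ1, with a median log2 fold change of 1.89. Across the protein and rRNA genes the adjusted p-values from edgeR ran from 1.2e-25 to 2.4e-16. MT-ND4 (chrM:10760-12137), the most abundant of the 7 by counts, was at 5654, 5701 and 5567 CPM after DMSO and 20969, 21139 and 21775 CPM after THZ1. Its log2 fold change was 1.92 (SE 0.07). MT-ND1 (chrM:3307-4262), the first protein gene downstream of the rRNAs, was at 2229, 2160 and 2287 CPM after DMSO and 8642, 9234 and 9464 CPM after THZ1, a log2 fold change of 2.03 (SE 0.07). MT-ND2 (chrM:4470-5511) was at 2379, 2266 and 2392 CPM after DMSO and 8093, 8785 and 9174 CPM after THZ1, a log2 fold change of 1.89 (SE 0.07). These 3 genes moved by similar amounts, with standard errors of 0.07 each.

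MT-ND5 (chrM:12337-14148), the longest protein gene, moved less. Its level was 2804, 2917 and 2689 CPM after DMSO and 7218, 8053 and 8442 CPM after THZ1, a log2 fold change of 1.5 (SE 0.07). MT-ND3 (chrM:10059-10404) was at 437.0, 475.5 and 529.8 CPM after DMSO and 1428, 1441 and 1497 CPM after THZ1, a log2 fold change of 1.6 (SE 0.07). The short gene MT-ND4L (chrM:10470-10766) rose most among the protein genes, by a log2 of 2.45 (SE 0.10), with 195.4, 264.4 and 173.8 CPM after DMSO and 1243, 1106 and 1104 CPM after THZ1. DMSO library 2 stood above the other DMSO libraries for this gene, and leaving out 1 library at a time moved its log2 fold change between 2.30 and 2.62.

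MT-ND6 (chrM:14149-14673), the only protein gene of the light strand, rose least of the 13. Its level was 1109, 1099 and 1122 CPM after DMSO and 2474, 2809 and 2977 CPM after THZ1, and the log2 fold change was 1.31 (SE 0.07). On the second deposited table MT-ND6 changed sign (-0.14) without passing the threshold, and MT-ND2, MT-ND4 and MT-ND5 kept their direction but were not called (0.16, 0.22 and 0.27).

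MT-CYB (chrM:14747-15887), cytochrome b, is the only mitochondrial subunit of complex III. It was at 1990, 1966 and 2099 CPM after DMSO and 8199, 8717 and 8810 CPM after THZ1. The log2 fold change was 2.09 (SE 0.07), above that of its upstream neighbour on the same strand, MT-ND5.

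The 3 mitochondrial subunits of complex IV, the cytochrome c oxidase, were all higher, with a median log2 fold change of 1.70. MT-CO1 (chrM:5904-7445), the catalytic subunit, was at 9972, 10017 and 9823 CPM after DMSO and 37986, 39936 and 40080.0 CPM after THZ1, a log2 fold change of 1.98 (SE 0.08). It had the highest mean CPM of all genes in the table after either treatment. MT-CO2 (chrM:7586-8269), which takes electrons from cytochrome c, was at 3667, 3456 and 4018 CPM after DMSO and 11585, 12125 and 12503 CPM after THZ1, a log2 fold change of 1.70 (SE 0.08). MT-CO3 (chrM:9207-9990) was at 4490, 4368 and 4786 CPM after DMSO and 11486, 12516 and 12621 CPM after THZ1. Its log2 fold change of 1.42 (SE 0.07) was the smallest of the complex IV genes. On the second deposited table it changed sign (-0.19).

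Both mitochondrial subunits of complex V were higher. MT-ATP6 (chrM:8527-9207), part of the proton channel, was at 2585, 2437 and 2760 CPM after DMSO and 6433, 6605 and 6946 CPM after THZ1, a log2 fold change of 1.36 (SE 0.07). MT-ATP8 (chrM:8366-8572) was the least abundant protein gene, with 25, 31.1 and 24.6 CPM after DMSO and 90.2, 79.3 and 82.0 CPM after THZ1, a log2 fold change of 1.64 (SE 0.10). Like MT-ND4L, it was highest among the DMSO libraries in library 2.

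**Figure D2:**
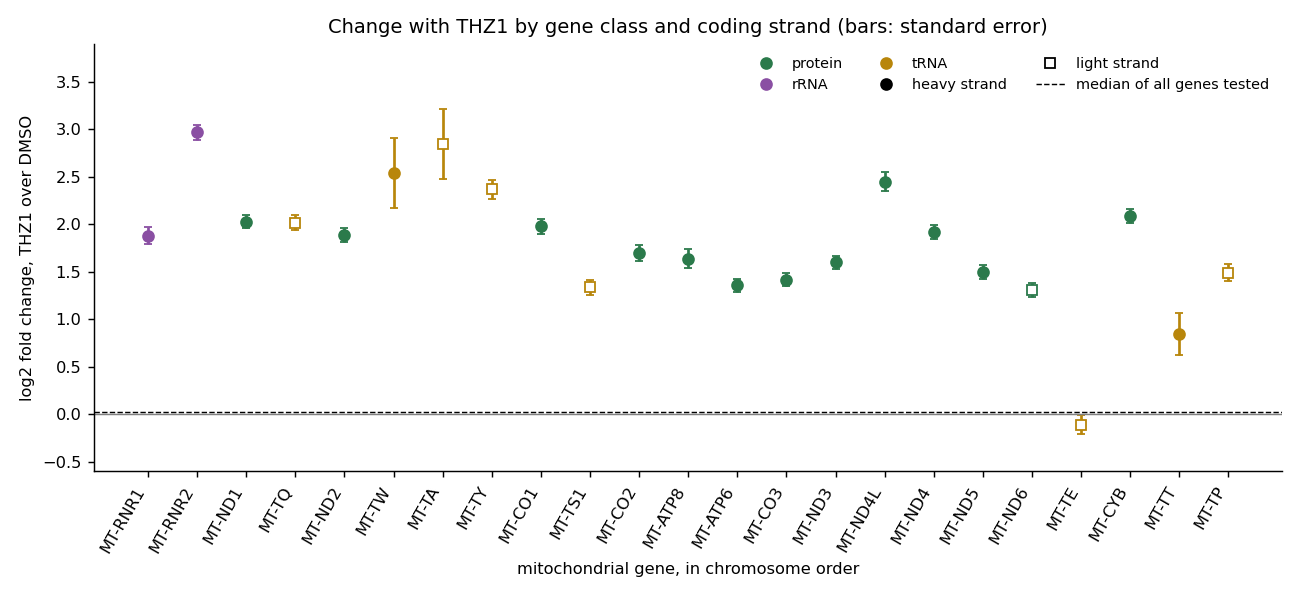
Log2 fold change (THZ1 over DMSO, edgeR) of the 23 mitochondrial genes tested, in genome order, with bars for 1 standard error, colours for gene class, filled circles for the heavy strand, open squares for the light strand and a dashed line at the median of all genes tested. All genes but MT-TE lie above 0, and MT-RNR2 lies highest at 2.97.

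The tRNA genes were counted very unevenly. Of 22, 10 had no count in any library (MT-TF, MT-TV, MT-TL1, MT-TD, MT-TK, MT-TG, MT-TR, MT-TH, MT-TS2 and MT-TL2), which allows a level of up to 0.253 CPM after DMSO and 0.415 CPM after THZ1 for 3 counts in a library. All 10 are heavy strand genes. A further 4 had at most 5 counts in a library: MT-TI and MT-TM of the heavy strand and MT-TN and MT-TC of the light strand. The 8 that could be tested were 6 of the 8 light strand tRNA genes and 2 of the 14 of the heavy strand. In a library the heavy strand tRNA genes held 51 to 95 counts and the light strand ones 7812 to 14598.

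MT-TS1 (chrM:7446-7514) was the most abundant tRNA gene, with 551.3, 507.2 and 666.5 CPM after DMSO and 1357, 1512 and 1486 CPM after THZ1. It held 80.5% ± 2.39 of the tRNA counts after DMSO and 76.2% ± 0.508 after THZ1 (SD, n = 3 each). Its log2 fold change was 1.34 (SE 0.08). The gene lies on the opposite strand directly after the end of MT-CO1, the most abundant mRNA, and for every 100 counts of MT-CO1 it had 5.53, 5.06 and 6.78 counts after DMSO and 3.57, 3.79 and 3.71 after THZ1.

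MT-TY (chrM:5826-5891), which lies on the other side of MT-CO1, was at 39.8, 39.3 and 30.2 CPM after DMSO and 164.1, 194.2 and 205.2 CPM after THZ1, a log2 fold change of 2.37 (SE 0.10). For every 100 counts of MT-CO1 it had 0.399, 0.392 and 0.308 counts after DMSO and 0.432, 0.486 and 0.512 after THZ1. Relative to MT-CO1, then, MT-TY was higher after THZ1 and MT-TS1 lower, with no overlap of the treatments for either.

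MT-TQ (chrM:4329-4400) was at 33.0, 31.6 and 30.9 CPM after DMSO and 120.7, 132.3 and 134.6 CPM after THZ1, a log2 fold change of 2.02 (SE 0.08). Its counts kept close to those of MT-ND1, with 1.48, 1.46 and 1.35 per 100 after DMSO and 1.40, 1.43 and 1.42 after THZ1, and these ranges overlapped. MT-TP (chrM:15956-16023) was at 32.3, 30.6 and 36.7 CPM after DMSO and 88.1, 97.2 and 93.8 CPM after THZ1, a log2 fold change of 1.49 (SE 0.09). For every 100 counts of MT-CYB, MT-TP had 1.62, 1.55 and 1.75 after DMSO and 1.07, 1.11 and 1.07 after THZ1, without overlap.

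MT-TE (chrM:14674-14742) was the one mitochondrial gene tested that was not called. It had 387, 379 and 383 counts after DMSO and 211, 233 and 211 counts after THZ1, or 32, 31.1 and 32.3 CPM against 27.7, 32.3 and 28.2 CPM, and the ranges overlapped. The log2 fold change was -0.11 (SE 0.10, edgeR adjusted p = 0.300). Its direction and call depended on the scaling: with library sizes alone it was lower (-0.36, adjusted p = 0.00205), and with upper quartile factors it was slightly above 0 (0.08). MT-TE adjoins MT-ND6 on the light strand. Per 100 counts of MT-ND6 it had 2.89, 2.83 and 2.88 after DMSO and 1.12, 1.15 and 0.948 after THZ1, a log2 ratio of -1.42 that does not depend on scaling.

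The 3 remaining tRNA genes rested on few reads. MT-TW, for tryptophan (chrM:5512-5579), had 9, 8 and 5 counts after DMSO and 19, 26 and 35 after THZ1, a log2 fold change of 2.54 (SE 0.37, edgeR adjusted p = 2.4e-07). MT-TA, for alanine (chrM:5587-5655), had 6, 8 and 4 counts after DMSO and 25, 31 and 26 after THZ1, a log2 fold change of 2.85 (SE 0.37, adjusted p = 2.4e-08). MT-TT, for threonine (chrM:15888-15953), was at 3.47, 3.77 and 3.54 CPM after DMSO and 6.18, 5.68 and 7.62 CPM after THZ1. Its log2 fold change of 0.85 (SE 0.22) was the lowest of the 22 genes called higher. MT-TW and MT-TA passed the filter only through the THZ1 libraries, so their direction was largely set by it. The 3 had standard errors of 0.22 to 0.37 against 0.07 to 0.10 for the protein and rRNA genes.

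The strands were then compared within libraries. The light strand mRNA MT-ND6 had 3.04, 3.05 and 3.02 counts per 100 counts of the 12 heavy strand mRNAs after DMSO and 2.01, 2.16 and 2.25 after THZ1. The mean went from 3.04 ± 0.0159 to 2.14 ± 0.123 (SD, n = 3 each), a log2 ratio of -0.51, and the treatments did not overlap. Against its neighbour MT-ND5, which lies on the heavy strand and ends where MT-ND6 begins on the chromosome, MT-ND6 had 39.5, 37.7 and 41.7 counts per 100 after DMSO and 34.3, 34.9 and 35.3 after THZ1. The same direction held there, with a smaller log2 ratio of -0.19. Only MT-ND6 stands for the light strand in these mRNA ratios. Its log2 fold change of 1.31 (SE 0.07) lay just below the range of the 12 heavy strand mRNAs, 1.36 to 2.45. The lowest of those, MT-ATP6, had a standard error of 0.07, so MT-ND6 was not set apart from the heavy strand mRNAs. For tRNAs, the heavy strand genes had 0.618 ± 0.0705 counts per 100 counts of the light strand genes after DMSO and 0.557 ± 0.0819 after THZ1, and these values overlapped. The light strand genes therefore did not move as 1 group: MT-TY and MT-TQ rose by a log2 of 2.37 and 2.02, MT-ND6 and MT-TS1 by 1.31 and 1.34, and MT-TE was not called.

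**Figure D3:**
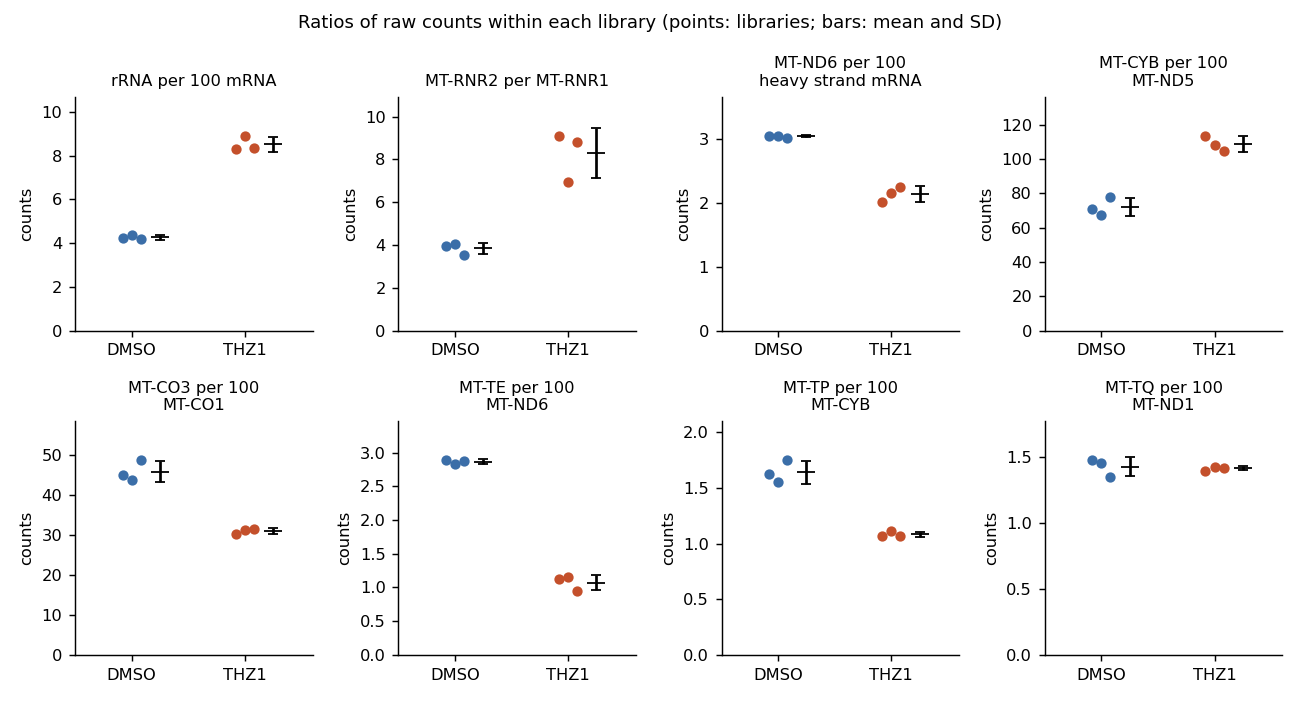
Ratios of counts within each library, 1 panel per ratio on its own linear axis from 0, with points for the 3 DMSO and 3 THZ1 libraries and bars for the mean and SD. MT-ND6 per 100 heavy strand mRNA counts lies at 3.02 to 3.05 after DMSO and at 2.01 to 2.25 after THZ1, and rRNA per 100 mRNA counts at 4.17 to 4.39 and at 8.28 to 8.91.

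The makeup of the mitochondrial mRNA pool shifted as well. MT-CO1 went from 26.4% ± 0.662 to 30.0% ± 0.331 of the counts of the 13 protein genes (SD, n = 3 each), and MT-ND4 from 15% ± 0.403 to 16.2% ± 0.381. MT-ND1 went from 5.91% to 6.94%, MT-CYB from 5.36% to 6.53%, MT-ND2 from 6.23% to 6.61% and MT-ND4L from 0.562% to 0.879%. These 6 genes took a larger share after THZ1 in every library than in any DMSO library. MT-CO3 went from 12.1% ± 0.388 to 9.30% ± 0.159, MT-ATP6 from 6.89% ± 0.327 to 5.07% ± 0.0794, and MT-ND5 from 7.45% ± 0.411 to 6.01% ± 0.254. MT-CO2 (9.86% to 9.19%), MT-ND6 (2.95% to 2.09%) and MT-ND3 (1.28% to 1.11%) also took smaller shares without overlap. MT-ATP8, at 0.0715% and 0.0640%, was the one gene whose treatments overlapped.

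**Figure D4:**
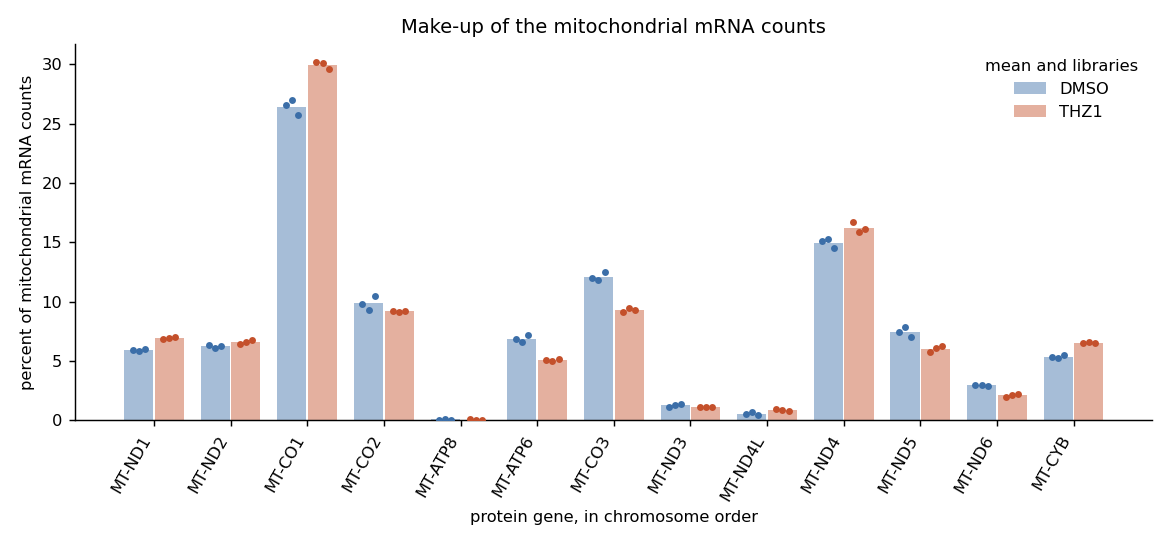
Share of the mitochondrial mRNA counts (percent) of each of the 13 protein genes, with bars for the means and points for the 3 DMSO and 3 THZ1 libraries. The share of MT-CO1 is higher after THZ1 (30.0% against 26.4%) and that of MT-CO3 lower (9.30% against 12.1%).

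Genes of the heavy strand did not keep a fixed ratio to each other. For every 100 counts of MT-CO1 there were 36.8, 34.5 and 40.9 counts of MT-CO2, the next protein gene, after DMSO and 30.5, 30.4 and 31.2 after THZ1. MT-CO3, which lies further downstream, had 45, 43.6 and 48.7 counts per 100 of MT-CO1 after DMSO and 30.2, 31.3 and 31.5 after THZ1. MT-ND5 per 100 counts of MT-ND4 went from 49.6, 51.2 and 48.3 to 34.4, 38.1 and 38.8. MT-CYB per 100 counts of MT-ND5 went the other way, from 71.0, 67.4 and 78.0 to 113.6, 108.2 and 104.4. None of these 4 ratios overlapped between treatments. The genes that share bases behaved differently: MT-ND4L per 100 counts of MT-ND4, whose overlap is printed above, was higher after THZ1 (3.46, 4.64 and 3.12 against 5.93, 5.23 and 5.07), while MT-ATP8 per 100 counts of MT-ATP6 overlapped between treatments (0.966, 1.27 and 0.893 against 1.40, 1.2 and 1.18).

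Per length, in CPM per kb of gene, MT-CO1 had the highest level of the protein and rRNA genes after DMSO (6445), followed by MT-CO3 (5801), MT-CO2 (5429), MT-ND4 (4093) and MT-ATP6 (3809). Of these neighbours, MT-CO3 and MT-CO2 overlapped, and so did MT-ND4 and MT-ATP6. The lowest levels per kb were those of MT-RNR2 (815.9), MT-ND4L (711.2), MT-RNR1 (348.3) and MT-ATP8 (129.9). After THZ1 the order began with MT-CO1 (25508), MT-CO2 (17648), MT-CO3 (15571) and MT-ND4 (15453), of which the last pair overlapped. MT-RNR2, at 6386 CPM per kb, had moved from below MT-ND6, MT-ND5 and MT-ND3 to above them (5244, 4362 and 4206).

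In the order of all genes by mean CPM, 5 mitochondrial genes stood among the first 10 after DMSO and 9 after THZ1. MT-RNR2 went from place 55 to place 6, MT-CYB from 26 to 9, MT-RNR1 from 378 to 84 and MT-ND4L from 702 to 92.

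Position on the chromosome, length and base content followed the differences between the protein genes only weakly. Across the 12 heavy strand protein genes, which share their libraries and one transcript and are not independent, the log2 fold change had a Pearson r of -0.03 and a Spearman rho of -0.01 with the start position. Across all 13, r was 0.08 with gene length, 0.20 with GC percent and -0.13 with the log2 level per kb after DMSO. These are descriptions of 12 or 13 genes.

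Stretches of mitochondrial sequence have been copied into the nuclear genome, and a read that matches both places cannot be assigned. The share of 50-base windows of a gene found unchanged in the nuclear chromosomes of the reference was 50.6% for MT-CO1, 48.3% for MT-ATP6, 43.6% each for MT-RNR1 and MT-ND2, 15.7% for MT-RNR2, 3.5% for MT-ND4 and 0% for MT-ND3 and MT-ND4L. Across the 13 protein genes this share had an r of -0.23 with the log2 fold change. It was 100% for MT-TQ, MT-TW, MT-TA, MT-TS1 and MT-TE, 11.8% for MT-TY and 0% for MT-TT and MT-TP. How the aligner treated such reads was not given in the sources used here, and the read length neither, so the counts of the genes with large shares are uncertain.

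The count table lists 394 nuclear copies of mitochondrial genes, of which 337 were at 0 in every library. Most of the 8 that were tested passed the filter only through the THZ1 libraries, so that their direction was largely set by the filter. When 10 counts were required in all libraries, 3 were left, and these were called higher, as were 43.5% of all genes tested in the full fit. MTATP6P1 (chr1:569076-569756), a nuclear copy of MT-ATP6, was at 198.2 ± 4.36 CPM after DMSO and 675.5 ± 49.6 CPM after THZ1, a log2 fold change of 1.77 beside the 1.36 of MT-ATP6. MTCO1P12 (chr1:566454-567996) was at 13.9 ± 5.15 and 82.3 ± 3.61 CPM, a log2 fold change of 2.56 beside the 1.98 of MT-CO1. MTND2P28 (chr1:565020-566063) had a log2 fold change of 2.77 beside the 1.89 of MT-ND2. These 3 near-identical copies moved in the direction of the mitochondrial gene they resemble, and reads of a copy and its source could have been split between them.

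The nuclear partners of the mitochondrial subunits moved in both directions. Of 74 nuclear subunits of complexes I, III, IV and V, 28 were higher, 37 lower and 9 not called, with a median log2 fold change of -0.22 against 0.03 over all genes tested, of which 43.5% were higher and 41.1% lower. In complex I, 16 of 37 nuclear subunits were higher and 18 lower (median -0.24), against 7 of 7 mitochondrial ones higher. NDUFA13, an accessory subunit whose gene overlaps another on the same strand, was the highest (3.46, with 2.23, 2.05 and 1.1 CPM after DMSO and 21.2, 21 and 17.6 CPM after THZ1), and NDUFB5, also an accessory subunit, the lowest (-2.44). In complex III, 3 of 9 were higher and 4 lower (median -0.18), from CYC1, cytochrome c1 (0.60), to UQCRC2, a core protein (-0.97). In complex IV, 5 of 11 were higher and 4 lower (median 0.01), from COX6A1 (2.0) to COX7C (-1.35). COX6A1, whose gene overlaps another on the same strand, had only 49, 56 and 26 counts after DMSO and 95, 126 and 103 after THZ1. In complex V, 4 of 17 were higher and 11 lower (median -0.92), from ATP5F1B, the catalytic beta subunit (1.44, from 850.3 ± 44 to 2308 ± 66.3 CPM), to ATP5MC1, of the c-ring (-2.07).

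Median levels per kb moved apart within each complex. The 7 mitochondrial subunits of complex I had a median of 2114 ± 21.2 CPM per kb after DMSO and 5244 ± 487.0 after THZ1 (SD over 3 libraries each), while the 37 nuclear ones had 14.9 ± 1.68 and 12.5 ± 0.531. In complex IV the mitochondrial median went from 5801 ± 274.1 to 17648 ± 674.4 and the nuclear one from 43.3 ± 5.46 to 28.6 ± 1.19. In complex V the values were 1970 ± 111.3 and 5093 ± 184.0 for the mitochondrial pair, and 43.0 ± 7.94 and 18.1 ± 0.238 for the nuclear genes. In complex III they were 1769 ± 61.9 and 7516 ± 288.3 for MT-CYB, and 45.2 ± 3.53 and 33.2 ± 1.21 for the nuclear genes. Summed nuclear levels moved otherwise. For complex V the sum was 2724 to 3193 CPM after DMSO and 3407 to 3572 CPM after THZ1. A large part of that sum was 1 gene, ATP5F1B, at 850.3 CPM after DMSO and 2308 CPM after THZ1. Of the 17 genes in the sum, 4 were higher and 11 lower. For complex III it was lower (936.6 to 1151 and 843.4 to 887.2 CPM), and for complexes I and IV the treatments overlapped. The length of a nuclear gene was that of all its annotated exons, so its level per kb is lower than that of its main transcript.

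**Figure D5:**
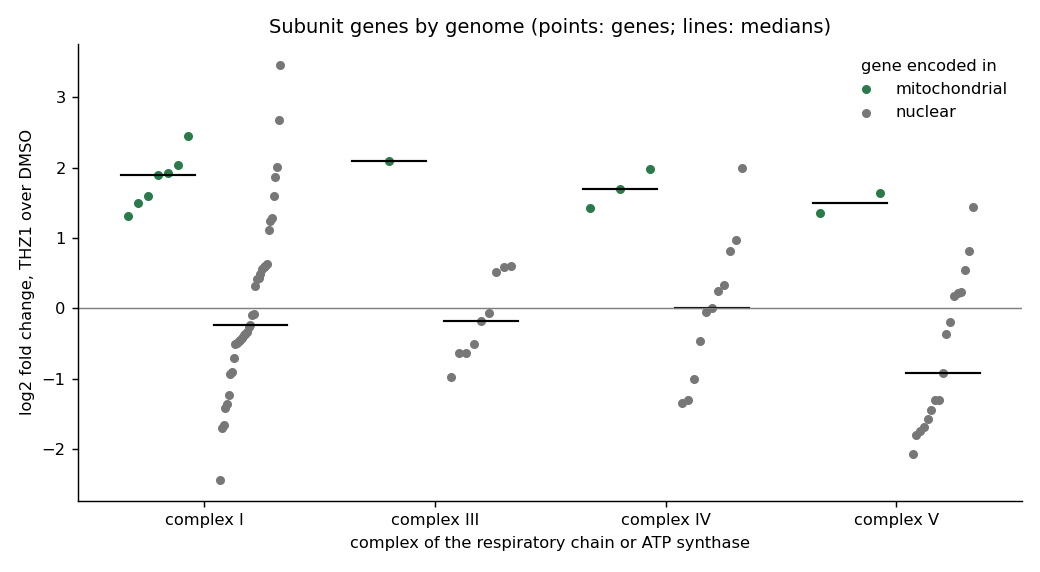
Log2 fold change (THZ1 over DMSO, edgeR) of the mitochondrial and nuclear subunits of complexes I, III, IV and V, 1 point per gene, with a line at each median. The mitochondrial medians lie at 1.89, 2.09, 1.70 and 1.5, and the nuclear medians at -0.24, -0.18, 0.01 and -0.92.

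The nuclear genes that cut and stabilise mitochondrial RNA were mostly lower, while those that transcribe it were mixed. Of 4 transcription genes tested, 2 were higher, 1 was lower and 1 was not called (median log2 fold change 0.1). POLRMT (chr19:617221-633537), the mitochondrial RNA polymerase, was at 179.0, 158.8 and 183.7 CPM after DMSO and 281.8, 286.4 and 288.0 CPM after THZ1. The log2 fold change was 0.72 (SE 0.07, edgeR adjusted p = 5.2e-11). TFAM (chr10:60145105-60158980), which packages mitochondrial DNA and starts transcription, was at 69.7, 66.6 and 63.5 CPM after DMSO and 85.5, 84.6 and 84.4 CPM after THZ1, a log2 fold change of 0.35 (SE 0.08, adjusted p = 0.00014) that was not called with library sizes alone (0.10, adjusted p = 0.237). TFB2M, the other initiation factor, was not called (-0.15, adjusted p = 0.137), TEFM, the elongation factor, was lower (-0.45, adjusted p = 0.00216; not called with upper quartile factors), and MTERF1 was at 0 in every library.

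Of 5 genes for RNA processing 1 was higher and 3 were lower (median -0.74). TRNT1, which adds the CCA end to tRNAs, was the highest (0.58) and ELAC2, which cuts tRNAs at their 3′ end, the lowest (-1.04). Of 13 genes for mRNA stability 2 were higher and 10 lower (median -0.72). LRPPRC (chr2:44113363-44223365), which with SLIRP binds and stabilises mitochondrial mRNAs, was at 248.2, 271.7 and 235.0 CPM after DMSO and 73.9, 73.2 and 72.7 CPM after THZ1, a log2 fold change of -1.78 (SE 0.08, edgeR adjusted p = 5.5e-20). SLIRP (chr14:78174414-78227447) was at 64.5, 58.1 and 74.7 CPM after DMSO and 40.6, 38.9 and 40.5 CPM after THZ1, a log2 fold change of -0.72 (SE 0.09, adjusted p = 3.4e-08). FASTKD5, needed for cutting mRNAs that no tRNA flanks, was the highest of this list (0.57). The full list of 42 factors tested also holds genes that modify mitochondrial rRNA and tRNA or maintain mitochondrial DNA. Of these 42, 11 were higher and 26 lower, with a median of -0.44, against 43.5% higher and 41.1% lower over all genes.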

How the data were processed

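RNA-SEQ was performed on 6 NALM6 libraries, 3 given DMSO and 3 given 500 nM THZ1 for 24 h, grouped by their labels. A table of raw counts, deposited by the authors, was made with htseq-count after alignment to GRCh37, per the labels and methods. Submitters' processing notes name cutadapt, STAR, HTSeq and RSEM; the versions of those other than STAR, the annotation, strand setting and read length were not given in the sources used here. A second table deposited by the authors holds values on a log2 scale described as FPKM, used only as an alternative; its 3 columns of the authors' own comparison (fold changes and p-values) were not used. Its values were taken off the log2 scale before a pseudocount was added.

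Symbols, coordinates and strands came from GENCODE 44 on GRCh37. The 37 genes and the gene lists were chosen with earlier results of these data known. Counts were tested with edgeR 4.0.16 (R 4.3.3): genes were kept by filterByExpr (minimum count 10, minimum total 15), libraries scaled by TMM, and THZ1 compared with DMSO by the quasi-likelihood test without covariates. P-values were adjusted by the Benjamini-Hochberg method over 16622 genes, and a gene was called at an adjusted p below 0.05. The standard error of a log2 fold change was its size divided by the square root of F. Non-overlap means that every library of one treatment lies above every library of the other. Shares and ratios were computed within libraries from raw counts, with no test. Intervals and limits from 3 counts cover counting error only.

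Named were all 37 genes (those not tested by counts only), the highest and lowest log2 fold change of each list, POLRMT, TFAM, LRPPRC and SLIRP, and the 3 nuclear copies with the highest mean CPM; TFB2M, TEFM and MTERF1 were added to complete the transcription factors. Alternatives were other scalings, DESeq2 1.42.0, other filters, a replicate block, leaving out each library, and limma 3.58.1 on the second table (pseudocount 1 or 0.1, or a mean of at least 1). Several named nuclear genes, among them NDUFA13, COX6A1, SLIRP, TRNT1 and FASTKD5, overlap annotated neighbours, so their counts are uncertain. On simulated counts the test recovered 91 of 98 genes changed 2-fold and 94 of 94 changed 4-fold, and called 7 of 15892 unchanged genes. The simulation changed few genes, evenly up and down, with the same spread set for every gene. In the data 84.5% of all genes tested were called, so the simulated rate of false calls need not hold for them.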

Additional observations from a re-analysis of the deposited data

How the results depend on the processing

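On the counts, the calls of the mitochondrial genes hardly moved: of 320 recomputed log2 fold changes 317 kept direction and call, and MT-TE accounted for the others. MT-TE was at 0.08 with upper quartile factors and at 0.02 when 10 counts were required in all libraries, and with library sizes alone it was the 1 mitochondrial gene lower. Other scalings moved the median of all genes by -0.25 (library sizes alone) to 0.19 (upper quartile), and the mitochondrial median stayed between 1.63 and 2.07. At least 10 counts in every library left 3 nuclear copies called higher, and no filter 20.

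On the second table, limma called 9 mitochondrial genes higher with each setting, and 1, 1 and 2 lower (pseudocount 1, pseudocount 0.1, mean of at least 1). The share called over all genes of that table is not given, so these counts cannot be set against a background. MT-CO3 (-0.19) and MT-ND6 (-0.14) changed sign under all 3 settings, nuclear subunits called higher were 18, 17 and 18, and 1 nuclear copy was lower. Values of that table recurred across genes and treatments. For example, 13.51 stood for MT-ND2 in DMSO libraries 1 and 2 and for MT-CYB in all 3 THZ1 libraries. The size and sign of a change among such genes are therefore uncertain there. The second table holds 9 of the 13 protein genes and lacks MT-CO1, MT-CO2, MT-ND1 and MT-ATP6. Its sums therefore cover fewer mRNAs than the sums on counts. From them the share rose by 2.75 points. The log2 light to heavy strand mRNA ratio was -0.37 and the log2 rRNA to mRNA ratio 1.57. On counts, the log2 ratio for MT-RNR2 alone was 1.17. The cause of the differences between the second table and the counts was not tested.

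Leaving out each library in turn gave 22 mitochondrial genes higher and 0 lower throughout, 25 to 28 nuclear subunits higher and 36 to 42 lower, 11 factors higher and 25 to 26 lower, 7 to 9 nuclear copies higher and 0 lower, a share difference of 8.68 to 9.14 points, a light to heavy strand ratio of -0.54 to -0.46 and an rRNA to mRNA ratio of 0.96 to 1.02. Deviations of same-numbered libraries correlated at -0.004, 0.000969 and 0.0206, and not every library correlated best with its own number, so the numbers were not taken to pair the libraries. With the replicate number as a block the counts of calls were the same: 22 and 0, 28 and 37, 11 and 26, and 8 and 0. Few counts left 14 tRNA genes and most nuclear copies untested, and MT-TW and MT-TA rest on few reads.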

Other observations

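Other nuclear genes that act on mitochondrial RNA and DNA are listed here as values, beside 43.5% higher and 41.1% lower of all genes tested. Of 6 genes tested that modify mitochondrial rRNA, 1 was higher and 4 were lower after THZ1 (median log2 fold change -0.29): MRM2, a methyltransferase of MT-RNR2, had the highest value (0.57) and TFB1M, which methylates MT-RNR1, the lowest (-0.59). Of 8 genes that modify mitochondrial tRNAs, 3 were higher and 4 lower (median -0.20), from TRMT5 (0.92) to NSUN3 (-1.13), which acts on the anticodon of the methionine tRNA. Of 6 genes that maintain mitochondrial DNA, 2 were higher and 4 lower (median -0.68): MGME1, a nuclease, was at 31.0 ± 1.95 CPM after DMSO and 68.6 ± 5.83 CPM after THZ1 (1.14), and TOP1MT, the mitochondrial topoisomerase, at 76.8 ± 6.47 and 28.5 ± 2.90 CPM (-1.43; SD, n = 3 each). On the second deposited table TRMT5 was not called (0.21 with a pseudocount of 1).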
